A study of Mus musculus with 8 samples.

Results

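The Tfap2 genes encode the AP-2 transcription factors. The 4 genes described here, *Tfap2a*, *Tfap2b*, *Tfap2c* and *Tfap2e*, were taken by their names from the 23358 genes of the deposited expression table. All 4 were found, each on a single line. RNA-seq had been run on tissue dissected from the growing end of mouse incisors, the cervical loop (CL): CLH, the head region that holds the dental epithelial stem cells, and CLT, the tail region that holds their progenies. Each region was taken from *Med1* cKO mice and from Ctrl mice, with 2 libraries in each of the 4 groups, so that the question was where and how far the loss of *Med1*, a subunit of the Mediator complex, changed the mRNA levels of these genes. The cKO mice were MED1 fl/fl and carried Cre recombinase driven by the *Krt14* promoter, which is active in basal epithelial cells and removes *Med1* exons 8 to 10 there. The Ctrl mice were littermates without Cre. All mice were C57BL/6 and 4 weeks old, and both sexes were used without distinction. The study used 2 independent litters, with 6 CL tissues pooled in each group. RNA of the whole dissected tissue was sequenced, so cells other than the Cre-bearing epithelium contributed to every library.

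AP-2 factors bind DNA as dimers through a conserved C-terminal region and recognise GC-rich palindromes. They are known for roles in the surface ectoderm, the epidermis and the neural crest, from which much of the face forms, and the dental epithelium is itself a derivative of oral ectoderm. *Tfap2a* is the founding gene of the family and is needed for development of the face and the closure of the cranial neural tube. *Tfap2b* acts in neural crest derivatives and in the kidney. *Tfap2c* acts in the trophectoderm, in germ cells and in the epidermis. *Tfap2e* is best known from the olfactory bulb. The remaining mouse gene of the family, *Tfap2d*, was outside the rule. It had 1 read in Ctrl CLH 1 and 0 reads in the other 7 libraries, where 3 reads would be the upper limit for a count of 0, and it was not tested.

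The 4 genes lie on different chromosomes. For every pair but *Tfap2b* and *Tfap2c*, at least 1 of the longest identical runs between their transcripts lay in the coding sequence of both. The stretch below, 90 bases of the last coding exon near the end of each coding sequence (GRCm38, mm10, GENCODE M21), is shown because it holds the longest run of identical bases that any pair of the genes shares. Capitals mark bases that differ from *Tfap2a* at the same place. The *Tfap2a* stretch lies at chr13:40717184-40717273 on the minus strand and the *Tfap2b* stretch at chr1:19234180-19234269 on the plus strand. The *Tfap2c* stretch lies at chr2:172557221-172557310 on the plus strand and the *Tfap2e* stretch at chr4:126716576-126716665 on the minus strand.
Tfap2a: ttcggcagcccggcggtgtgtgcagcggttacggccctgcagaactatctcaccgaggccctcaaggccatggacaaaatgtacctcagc
Tfap2b: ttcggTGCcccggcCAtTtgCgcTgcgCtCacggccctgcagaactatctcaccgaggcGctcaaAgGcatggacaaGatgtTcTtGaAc
Tfap2c: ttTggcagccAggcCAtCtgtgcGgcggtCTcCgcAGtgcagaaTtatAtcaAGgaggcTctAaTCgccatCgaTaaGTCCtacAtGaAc
Tfap2e: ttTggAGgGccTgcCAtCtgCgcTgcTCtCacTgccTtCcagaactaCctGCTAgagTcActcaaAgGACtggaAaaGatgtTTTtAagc
*Tfap2b* differed from *Tfap2a* at 18 of these 90 bases, *Tfap2c* at 28 and *Tfap2e* at 33. The longest identical run between *Tfap2a* and *Tfap2b* was acggccctgcagaactatctcaccgaggc, 29 bases. Reads were 50 bases long, and no pair of the 4 genes shared an identical stretch of 50 bases in the annotated transcripts, so a whole read without mismatch could be placed on only 1 of them. *Tfap2a* is also overlapped by the antisense genes *Gm47061* and *Gm26688*. The strand setting of the read counting is not given in the sources used here. Overlap was taken from gene spans, not exons, so whether reads of these genes were counted for *Tfap2a* could not be told.

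Because the 4 genes differed between the same libraries, the bases before their annotated starts were also compared. RefSeq (GRCm38.p6) gave 4 such windows for 3 of the 4 genes, and *Tfap2c* had none. The windows shown hold the 250 bases that end just before a transcript start, with CpG dinucleotides in capitals. The *Tfap2a* window lies at chr13:40734921-40735170 (minus strand), the *Tfap2b* window at chr1:19211804-19212053 (plus strand, within an intron of the transcripts that begin upstream) and the *Tfap2e* window at chr4:126736270-126736519 (minus strand). The transcript start of this *Tfap2a* window lies 1097 bases upstream of the 5' end of the gene as counted. That of the *Tfap2a* window not shown lies 28 bases from the same end.
Tfap2a: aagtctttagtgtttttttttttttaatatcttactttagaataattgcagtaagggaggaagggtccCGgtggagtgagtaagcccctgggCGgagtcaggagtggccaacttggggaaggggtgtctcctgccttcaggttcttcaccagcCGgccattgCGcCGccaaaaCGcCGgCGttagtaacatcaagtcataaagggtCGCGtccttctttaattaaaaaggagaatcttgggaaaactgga
Tfap2b: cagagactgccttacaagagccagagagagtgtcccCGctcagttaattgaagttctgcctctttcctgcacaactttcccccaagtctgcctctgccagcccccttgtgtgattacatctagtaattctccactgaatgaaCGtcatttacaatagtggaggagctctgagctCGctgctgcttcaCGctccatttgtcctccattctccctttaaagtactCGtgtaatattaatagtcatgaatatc
Tfap2e: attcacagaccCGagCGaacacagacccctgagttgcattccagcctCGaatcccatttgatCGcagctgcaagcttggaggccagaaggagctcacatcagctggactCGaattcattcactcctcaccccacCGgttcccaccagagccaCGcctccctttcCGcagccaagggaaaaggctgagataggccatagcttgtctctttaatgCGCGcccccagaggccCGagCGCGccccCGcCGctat
CpG counts were 10 for *Tfap2a*, 5 for *Tfap2b* and 15 for *Tfap2e*, against a median of 6 over all 32851 windows of this length. The palindromic AP-2 motif GCCNNNGGC, searched on both strands, was in none of the 4 windows of these genes and in 13.726% of all windows. The homeodomain core TAATTA was found in the *Tfap2a* window shown, 32 bases before the start, and in 4.84% of all windows. It was not found in the other *Tfap2a* window. The AP-1 motif TGANTCA (6.749% of all windows), the Runx core TGTGGT (14.045%) and TATAAA (12.368%) had no match in the 4 windows. A match or its absence describes these letters only.

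The libraries held between 26591613 and 34420180 reads, of which 82.2% to 85.6% lay on genes of the table. Levels are given as RPKM, reads scaled to the length of the gene and to the depth of the library, which is the scale on which levels of different genes may be set side by side. *Med1* itself gave no check of the labels. Its RPKM was 4.83 to 9.12 in the 4 Ctrl libraries, 7.10 and 7.04 in the libraries labelled cKO CLH and 9.15 and 8.96 in those labelled cKO CLT, and these values cover the whole gene, with the exons that Cre removes not counted apart. The 2 Ctrl CLT libraries stood apart from each other: over all genes tested, their median absolute log2 ratio was 0.423, against 0.103 to 0.132 in the other groups. Markers set the cKO CLT libraries apart as well. Values are given for library 1 and then library 2 of a group. The 7 ameloblast genes (*Amelx*, *Ambn*, *Enam* and others) summed to 19.7 and 15.8 RPKM there, against 37392 to 84584 in Ctrl CLT and 12504 to 14318 in the 4 CLH libraries. The 4 odontoblast and bone genes summed to under 1 RPKM in both cKO CLT libraries and to 898 to 1175 in the other 6, with *Ibsp* at 0 reads in both cKO CLT libraries. Genes of the dental epithelial stem cell region summed to 37.7 and 40.7 in cKO CLT and 81.8 and 111 in Ctrl CLT, with *Nkx2-3* at 0 reads in cKO CLT. Mesenchyme genes summed to 2025 to 3838 in all 8, although the labels name dental epithelial cells.

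*Tfap2a* was the most abundant of the 4 in every library. It spans chr13:40715675-40733823 on the minus strand. In CLH its RPKM was 7.56 and 9.40 in Ctrl libraries and 8.47 and 7.74 in cKO libraries. The Ctrl CLT libraries measured 9.18 and 7.26 and the cKO CLT libraries 28.4 and 26.0. The 6 libraries outside cKO CLT lay in 1 range, and both cKO CLT libraries lay above all of them. Between 631 and 2602 reads stood behind each value. The cKO CLT mean of 27.2 ± 1.69 (SD, n = 2) was 3.31 times the Ctrl CLT mean of 8.22 ± 1.36 (SD, n = 2).

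*Tfap2b* was close to silent outside 3 libraries. It spans chr1:19208914-19238734 on the plus strand, 42567 bases downstream of *Tfap2d*. In CLH its RPKM was 0.0409 and 0.0466 in Ctrl libraries and 0.0417 and 0.00529 in cKO libraries. The Ctrl CLT libraries measured 2.95 and 0.0177 and the cKO CLT libraries 11.1 and 9.51. In the same order, the reads behind these values were 9 and 8, 9 and 1, 551 and 3, and 1983 and 1658. Ctrl CLT 1 was thus 166.93 times Ctrl CLT 2, a gap that *Tfap2a* did not show (1.26 times). The cKO CLT mean of 10.3 ± 1.10 (SD, n = 2) lay above both Ctrl CLT libraries, 3.49 times the higher of them.

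*Tfap2c* was present in every library. It spans chr2:172549593-172558621 on the plus strand. In CLH its RPKM was 1.86 and 1.88 in Ctrl libraries and 2.39 and 2.24 in cKO libraries. The Ctrl CLT libraries measured 5.17 and 1.80 and the cKO CLT libraries 14.9 and 15.0. Ctrl CLT 2 lay at the CLH level and Ctrl CLT 1 was 2.87 times higher, while the cKO CLT libraries lay above both. The cKO CLT mean of 14.9 ± 0.107 (SD, n = 2) was 4.29 times the Ctrl CLT mean of 3.49 ± 2.38 (SD, n = 2).

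*Tfap2e* was the least abundant of the 4 in both cKO CLT libraries. It spans chr4:126716003-126736269 on the minus strand. In CLH its RPKM was 0.0686 and 0.158 in Ctrl libraries and 0.0980 and 0.0160 in cKO libraries. The Ctrl CLT libraries measured 1.63 and 0.0888 and the cKO CLT libraries 4.11 and 5.09. In the same order as the RPKM, the reads behind these values were 5 and 9, 7 and 1, 101 and 5, and 244 and 294, so the CLH values rest on at most 9 reads. As with *Tfap2b*, Ctrl CLT 1 stood between the near-silent libraries and the cKO CLT libraries, at 18.4 times Ctrl CLT 2. The order of the RPKM in both cKO CLT libraries was *Tfap2a*, *Tfap2c*, *Tfap2b* and *Tfap2e*, with no overlap between neighbours. In CLH the order of *Tfap2b* and *Tfap2e* could not be told at 1 to 9 reads a library.

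**Figure D1:**
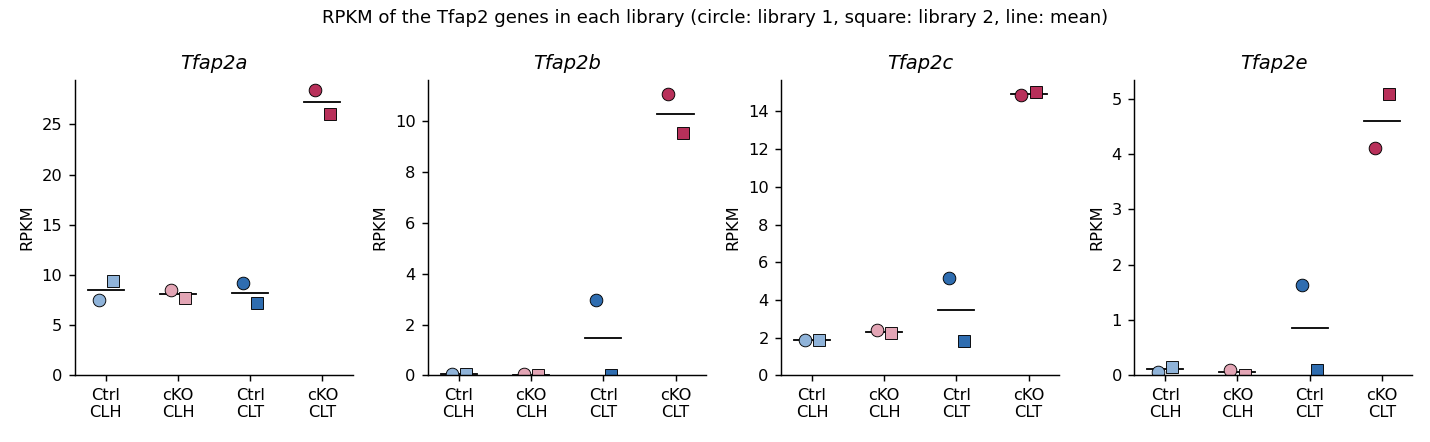
RPKM (linear axis from 0, with its own scale for each gene) of the 4 Tfap2 genes in the 8 libraries, by group. Circles are library 1, squares library 2 and lines the mean of the 2 libraries; both cKO CLT libraries lie above all others for every gene, and Ctrl CLT 1 lies above Ctrl CLT 2, by 1.26 times for *Tfap2a* and 166.93 times for *Tfap2b*.

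In CLT, 1 of the 4 genes was called higher in cKO than in Ctrl: *Tfap2a* rose by 1.62 on the log2(RPKM + 1) scale (SE 0.18, limma, Benjamini-Hochberg adjusted p = 0.0486 over 14148 genes). Of all genes tested, 0.0777% were called higher and 1.68% lower in this comparison. The differences of the other 3 genes were larger and did not pass: 2.49 for *Tfap2b* (SE 0.71, adjusted p = 0.101 by limma), 1.94 for *Tfap2c* (SE 0.43, adjusted p = 0.0793 by limma) and 1.72 for *Tfap2e* (SE 0.49, adjusted p = 0.1 by limma). Their 95% intervals were 0.53 to 4.45, 0.76 to 3.12 and 0.38 to 3.07. For all 4 genes both cKO libraries lay above both Ctrl libraries, which held for 37.2% of all genes tested. *Tfap2a* is also on a list that the study chose on these libraries, so its call is not independent evidence of its direction. The 1 added to each RPKM shrinks the differences of genes as low as *Tfap2b* and *Tfap2e*, which were 4.11 and 3.03 with a pseudocount of 0.1 and 5.26 and 3.46 by voom on the reads, still not called. Both entered the test through 3 libraries with an RPKM of at least 1, all of them CLT, so a difference between regions was built into their selection.

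The call of *Tfap2a* stood close to the threshold. Over 11 other settings of the fit its adjusted p ran from 0.00158 to 0.0981, and it passed in 5 of them. Without cKO CLT 1 the difference was 1.56 (adjusted p = 0.441 by limma) and without cKO CLT 2 it was 1.68 (adjusted p = 0.462 by limma). For the other 3 genes the call depended on the fit, and the size of the difference on the Ctrl CLT libraries. With all 8 libraries sharing 1 estimate of the spread, all 3 passed (adjusted p by limma 0.00798 to 0.0172), as did 23.7% of all genes in that direction. That estimate takes in the CLH libraries, where these 3 genes varied less, so it understates their spread in CLT. Fitted apart, their SE was 0.04 to 0.08 in CLH against 0.43 to 0.71 in CLT. Without Ctrl CLT 1 the differences were 3.47 for *Tfap2b*, 2.51 for *Tfap2c* and 2.36 for *Tfap2e*. Without Ctrl CLT 2 they were 1.51, 1.37 and 1.08. In these fits the lone Ctrl CLT library was assumed to vary like the cKO CLT pair, so only the differences are given. Without Ctrl CLT 1, *Tfap2b* and *Tfap2e* reached 1 RPKM in cKO CLT libraries alone. Their direction in that fit was thus built into their selection.

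Markers of hair, cornified epidermis, melanocytes and skeletal muscle moved with the same libraries. The 9 hair genes (*Krt71*, *Krt25*, *Tchh* and others) summed to 3903 and 12.6 RPKM in Ctrl CLT 1 and 2 and to 11476 and 12576 in cKO CLT, with 6.59 to 9.17 in the 4 CLH libraries. The 4 cornified epidermis genes found of 5 (*Krt1*, *Krt10*, *Lor* and *Ivl*) summed to 219 and 3.69 in Ctrl CLT against 659 and 670 in cKO CLT. The 6 melanocyte genes summed to 134 and 10.3, then 414 and 414, and the 5 skeletal muscle genes to 448 and 29.0, then 1238 and 1428. These lists were low but not silent in CLH. The study reported hair growing on *Med1* cKO incisors, with hair, epidermal and melanocyte genes raised in their dental tissue. Every gene of these 4 lists was higher in both cKO CLT libraries than in both Ctrl CLT libraries, as were 37.2% of all genes tested. Every one was also higher in Ctrl CLT 1 than in Ctrl CLT 2, a share not counted over all genes. The neural crest and Schwann cell genes, a lineage in which AP-2 factors also act, summed to 37.7 and 34.5 in Ctrl CLT against 97.2 and 99.8 in cKO CLT. Of these 5 genes, 4 were higher in both cKO libraries, against the same 37.2% of all genes. The part of these markers in the differences of the Tfap2 genes was not tested. In whole tissue, a change in the number of cells of a type and a change in the mRNA per cell cannot be told apart.

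In CLH, none of the 4 genes was called. The differences were -0.05 for *Tfap2a* (95% interval -0.39 to 0.28), -0.03 for *Tfap2b* (-0.13 to 0.08), 0.21 for *Tfap2c* (0.00 to 0.41) and -0.07 for *Tfap2e* (-0.25 to 0.10). By limma 0% of all genes were called in either direction, and voom on the reads called 0 as well. At an unadjusted p under 0.05, 4.83% were higher and 2.42% lower, and *Tfap2c* was among the higher ones (unadjusted p = 0.0468, adjusted p = 0.689 by limma). Both cKO CLH values of *Tfap2c* lay above both Ctrl CLH values, as did those of 19.9% of all genes. The intervals of *Tfap2a* and *Tfap2c* leave out differences of the size measured in CLT. For *Tfap2b* and *Tfap2e* the CLH values rest on at most 9 reads a library, and the ratio of cKO to Ctrl reads, scaled to depth, was 0.57 (0.233 to 1.32) and 0.553 (0.201 to 1.41). These intervals cover counting error only.

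The difference between the regions was tested in 1 model of all 8 libraries. For *Tfap2a* the cKO effect was larger in CLT than in CLH by 1.67 (SE 0.22, adjusted p = 0.00935 by limma), and 8.05% of all genes were called in that direction and 9.58% in the other. The same difference was 2.52 for *Tfap2b* (adjusted p = 0.0755 by limma), 1.73 for *Tfap2c* (adjusted p = 0.0555) and 1.80 for *Tfap2e* (adjusted p = 0.0686), and these 3 were not called. *Tfap2a* passed under each of the 10 other settings of this model, with adjusted p from 0.00792 to 0.025. It did not pass when Ctrl CLH 2 or any 1 of the 4 cKO libraries was left out, where the difference was 1.53 to 1.73 and the adjusted p by limma at most 0.0664.

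Between the regions of Ctrl mice, none of the 4 genes was called. The difference of CLT to CLH was -0.04 for *Tfap2a*, 0.94 for *Tfap2b*, 0.54 for *Tfap2c* and 0.61 for *Tfap2e* (adjusted p by limma from 0.565 to 0.929), where 0.00707% of all genes were called higher (1 gene) and 0% lower. None of the 4 had an unadjusted p under 0.05, and voom called none. The sign for *Tfap2a* turned under median-of-ratios scaling (0.12) and quantile normalization (0.06). The median of all genes was -0.13, and 0.01 under median-of-ratios scaling. The other 3 differences rested on Ctrl CLT 1: without it they were -0.04 for *Tfap2b*, -0.03 for *Tfap2c* and -0.03 for *Tfap2e*, and without Ctrl CLT 2 they were 1.92, 1.11 and 1.24, past the threshold (adjusted p by limma 0.004 to 0.0101). In that fit the lone Ctrl CLT library was assumed to vary like the Ctrl CLH pair, and 2600 genes were called higher and 4937 lower of 14148.

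Between the regions of cKO mice, *Tfap2a* and *Tfap2c*, which passed the filter on low values in all 8 libraries, rose from CLH to CLT. The differences were 1.63 for *Tfap2a* (SE 0.09, adjusted p = 9.69e-07 by limma) and 2.27 for *Tfap2c* (SE 0.10, adjusted p = 1.35e-07 by limma), and both passed under each of the 11 other settings and with each library left out. The differences of *Tfap2b* and *Tfap2e* were 3.46 and 2.40. These 2 genes had entered the test through CLT libraries alone, so their direction was built into the selection and their values are given as a description. Calls were common in this comparison: 28.9% of all genes were called higher and 45.1% lower, and 34.5% lay higher in both cKO CLT libraries than in both cKO CLH libraries. The median of all genes was -0.18. With median-of-ratios scaling it was 0.02, and 5270 genes were higher and 4884 lower in place of 4084 and 6384. In reads scaled to depth, *Tfap2b* was 417 times higher in cKO CLT than in cKO CLH (226 to 870, counting error only) and *Tfap2e* 77 times (38.8 to 179), against 3.35 (3.17 to 3.54) for *Tfap2a* and 6.44 (5.82 to 7.13) for *Tfap2c*. The comparisons share libraries: the cKO CLT pair stands in 3 of the 5 and the Ctrl CLT pair in 3.

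The mix of the 4 genes also differed between libraries. Their summed RPKM was 9.52 to 11.5 in the 4 CLH libraries, and 18.9 and 9.17 in Ctrl CLT against 58.4 and 55.6 in cKO CLT. *Tfap2a* made up 77.0% to 81.9% of this sum in the 4 CLH libraries and 79.2% in Ctrl CLT 2. It made up 48.6% and 46.7% in cKO CLT and 48.5% in Ctrl CLT 1. The share of *Tfap2b* was at most 0.43% in CLH and 0.193% in Ctrl CLT 2, but 18.9% and 17.1% in cKO CLT and 15.6% in Ctrl CLT 1. *Tfap2e* followed, with 0.16% to 1.38% in CLH, 0.969% in Ctrl CLT 2, 8.61% in Ctrl CLT 1, then 7.03% and 9.15% in the cKO CLT libraries. *Tfap2c* lay between 16.4% and 27.3% throughout. Ctrl CLT 1 thus had a mix close to that of the cKO CLT libraries at a lower summed level, and Ctrl CLT 2 a mix close to that of CLH. In cKO, the mean share of *Tfap2a* fell by 29.5 percentage points from CLH to CLT and that of *Tfap2b* was 17.8 points higher, each with an exact permutation p of 0.333 (two-sided, 2 against 2 libraries, adjusted p = 0.533 over 16 tests), the smallest p that this design allows.

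**Figure D2:**
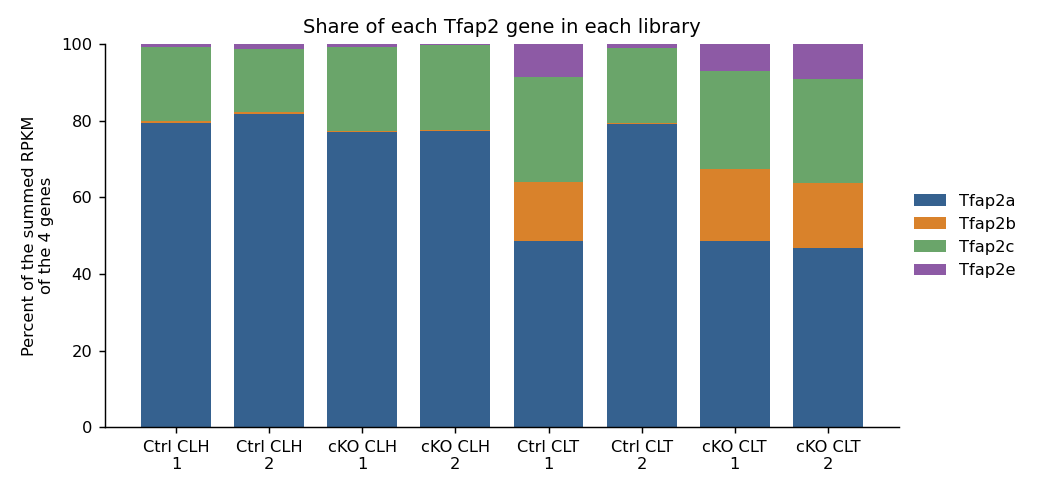
Share of each Tfap2 gene in the summed RPKM of the 4 genes (stacked bars, percent, 1 bar a library). *Tfap2a* takes 77.0% to 81.9% in CLH and 79.2% in Ctrl CLT 2, and 46.7% to 48.6% in the cKO CLT libraries and Ctrl CLT 1.

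Where Ctrl CLT 1 stood between Ctrl CLT 2 and the cKO CLT mean was then set beside the marker lists, on the linear RPKM scale. Counted from Ctrl CLT 2 at 0% to the cKO CLT mean at 100%, Ctrl CLT 1 lay at 28.5% for *Tfap2b*, 25.6% for *Tfap2c* and 34.2% for *Tfap2e*. The marker sums lay at 32.6% for cornified epidermis, 32.4% for hair, 30.7% for melanocyte, 32.1% for skeletal muscle and 51.0% for basal epithelium. *Tfap2a* lay at 9.64%. The neural crest and Schwann cell genes lay at 5.06%. The remaining lists were spread widely: odontoblast and bone 5.54%, dental epithelial stem cell region 40.7%, mesenchyme 61.4%, endothelial and blood 157% and ameloblast -126%. Outside 0% to 100%, Ctrl CLT 1 did not lie between Ctrl CLT 2 and the cKO CLT mean. *Tfap2a* and *Tfap2c*, both expressed in all 8 libraries, were thus far apart on this scale. These positions rest on 1 library against 1, with no replicate.

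**Figure D3:**
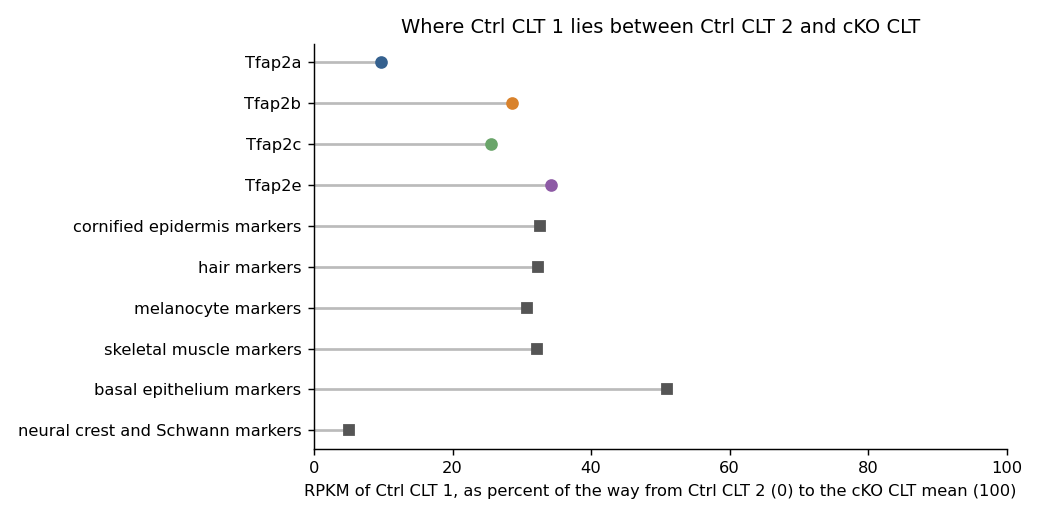
Position of Ctrl CLT 1 on a linear RPKM scale from Ctrl CLT 2 (0%) to the cKO CLT mean (100%), for the 4 Tfap2 genes (circles) and for some of the summed marker lists (squares). Lists not drawn lay from -126% (ameloblast) to 157% (endothelial and blood). *Tfap2b*, *Tfap2c* and *Tfap2e* lie between 25.6% and 34.2%, near the cornified epidermis, hair, melanocyte and skeletal muscle markers (30.7% to 32.6%), while *Tfap2a* lies at 9.64% and the neural crest and Schwann markers at 5.06%.

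The AP-2 factors act with cofactors, and 9 such genes were followed: the CITED coactivators, the acetyltransferases *Ep300* and *Crebbp*, the KCTD repressors, and *Yeats4*, *Wwox* and *Npm1*. In CLT, limma called 0 of the 9 cofactors between cKO and Ctrl, as did voom, and 2 had an unadjusted p under 0.05, where 19.8% of all genes were higher and 16.4% lower at that level. The median difference was 0.16, against -0.01 for all genes. *Cited4* and *Kctd15* stood at the upper end with 1.57 and 0.39, and *Kctd1* and *Cited2* at the lower end with -0.75 and -0.26. *Kctd1*, whose protein represses AP-2 activity, measured 13.8 and 13.6 RPKM in Ctrl CLT against 7.90 and 7.63 in cKO CLT. Both cKO libraries lay below both Ctrl libraries, as for 35.1% of all genes. Its adjusted p was 0.0725 by limma, and its cKO effect was lower in CLT than in CLH by the interaction test (-0.76, adjusted p = 0.0192 by limma). It was 1 of 9 cofactors called by this test, in the direction in which 9.58% of all genes were called. Between the regions of cKO mice, *Cited4* (2.47) and *Cited2* (0.69) rose, and *Kctd1* (-0.89), *Kctd15* (-0.42), *Wwox* (-0.35) and *Ep300* (-0.25) fell, so 2 of 9 were higher and 4 lower, where 28.9% of all genes were higher and 45.1% lower.

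Transcription factors that work beside AP-2 in surface ectoderm had a median difference of 1.64 between cKO and Ctrl in CLT. Of the 13 followed, 12 had a positive difference and 9 an unadjusted p under 0.05 (19.8% of all genes were higher at that level), but limma and voom each called 0. With all 8 libraries in 1 fit, 11 of the 13 were called higher, where 23.7% of all genes were. That fit takes in the CLH libraries, which varied less than the Ctrl CLT pair, so it can understate the spread in CLT. The grainyhead factor *Grhl1* measured 38.5 and 0.937 RPKM in Ctrl CLT against 138 and 135 in cKO CLT, a difference of 3.97 (adjusted p = 0.153 by limma). *Gata3*, a factor of the inner root sheath and the epidermis, measured 12.2 and 0.14 in Ctrl CLT against 39.7 and 38.9 in cKO CLT. For these genes too, Ctrl CLT 1 stood between Ctrl CLT 2 and the cKO CLT libraries. The homeobox genes *Dlx3* (0.16) and *Msx2* (-0.20), which the dental epithelium shares, had the 2 smallest values. Without Ctrl CLT 1 the median difference of the 13 was 2.23, and without Ctrl CLT 2 it was 1.06. In these fits the lone Ctrl CLT library was assumed to vary like the cKO CLT pair, so only the differences are given. Without Ctrl CLT 1, *Gata3* and *Grhl1* reached 1 RPKM in cKO CLT libraries alone. The direction of these 2 genes in that fit was thus built into their selection. The interaction test called 1 of the 13, where 8.05% of all genes were called higher: *Klf4* (1.10, adjusted p = 0.0281 by limma), a factor of epidermal differentiation that every library expressed at over 20 RPKM. In cKO mice the differences of CLT to CLH ran from 0.91 for *Klf4* and 1.13 for *Trp63*, the p63 gene of stratified epithelia, which both rose, to 5.26 for *Gata3* and 6.26 for *Grhl1*. *Gata3* and *Grhl1* reached 1 RPKM in 3 CLT libraries and in no CLH library, so that direction was built into their selection. Of the other 11 genes, 9 rose, against 28.9% of all genes. *Msx2* fell by 0.32 and *Dlx3* was not called (-0.06).

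Genes that AP-2 factors are known to regulate were the third list, with 9 of 10 tested (*Esr1* was too low). In CLT limma and voom each called 0 of the 9 between cKO and Ctrl, 4 had an unadjusted p under 0.05 (19.8% of all genes were higher and 16.4% lower at that level), and the median difference was 0.71. *Krt10* and *Egfr* stood at the upper end with 4.17 and 1.76, and *Kit* and *Mcam* at the lower end with -0.59 and -0.06. *Krt10* is also one of the cornified epidermis markers, and *Krt5* and *Krt14* are basal epithelium markers. The receptor gene *Erbb2* measured 15.0 and 10.9 RPKM in Ctrl CLT against 29.4 and 34.9 in cKO CLT, and its close relative *Egfr* 7.71 and 3.35, then 20.4 and 19.3. By the interaction test the cKO effect was larger in CLT for *Erbb2* (1.17, adjusted p = 0.0279), *Egfr* (1.82, adjusted p = 0.0382) and *Cdh1* (0.69, adjusted p = 0.044; all by limma), the last of which encodes E-cadherin, where 8.05% of all genes were called in that direction. With voom on the reads 1 of the 9 was called in place of 3. Like *Tfap2a*, these 3 genes were expressed in all 8 libraries. In cKO mice 7 of the 9 rose from CLH to CLT (*Krt10* 5.42, *Egfr* 2.69, *Krt5* 1.78, *Krt14* 1.38, *Erbb2* 1.30, *Cdh1* 0.95 and *Cdkn1a* 0.66), *Kit* fell by 0.68, and *Mcam* was not called (-0.23), where 28.9% of all genes were higher and 45.1% lower. Without Ctrl CLT 1, 7 of the 9 were called higher between cKO and Ctrl in CLT, and without Ctrl CLT 2, 5, in the fits that called 4445 and 4121 of 14148 genes higher.

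**Figure D4:**
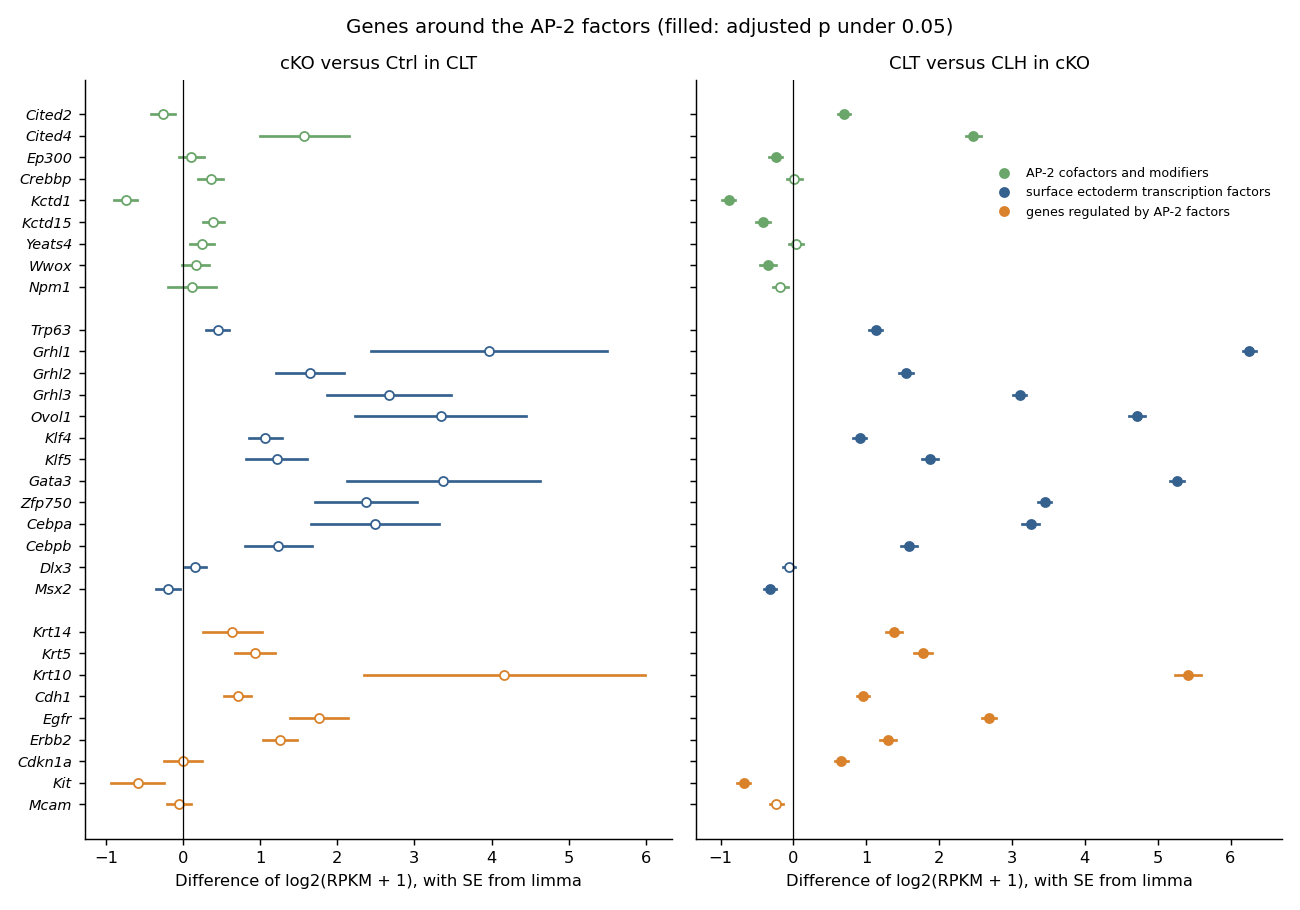
Differences of log2(RPKM + 1) with SE from limma for AP-2 cofactors, surface ectoderm transcription factors and genes regulated by AP-2 factors, in cKO against Ctrl in CLT (left) and CLT against CLH in cKO (right); filled circles have an adjusted p under 0.05. On the left no gene is filled and the SE are wide for *Grhl1*, *Gata3* and *Krt10*; on the right 2 cofactors, 11 transcription factors and 7 regulated genes are higher past the threshold, and 4, 1 and 1 are lower, with *Grhl1* and *Gata3* tested through CLT libraries alone.

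The 4 Tfap2 genes followed each other across the 8 libraries. Pearson's r of log2(RPKM + 1) ran from 0.930 (*Tfap2a* with *Tfap2b*) to 0.995 (*Tfap2b* with *Tfap2e*). These values and those that follow describe 8 libraries that fall into separate levels, with cKO CLT far above the rest, and share their depth and tissue. The share of all genes that reach such r was not counted. Each Tfap2 gene had a higher r with the 5 genes named for it below than with any other Tfap2 gene. The genes closest to *Tfap2a* were *Ttyh1* (r = 0.998), *Prpf18*, *Ctnnd1*, *Slc16a10* and *Kcna1* (0.995). *Ctnnd1*, which encodes p120-catenin, measured 44.6 to 51.3 RPKM in the 6 libraries outside cKO CLT and 80.1 and 83.6 in cKO CLT. The genes closest to *Tfap2b* were *Tmprss11e*, *Spink12*, *Actbl2*, *Crisp3* and *Krtap31-1*, with r from 0.99979 to 0.99986. *Spink12*, *Crisp3* and *Krtap31-1* were listed at 0 in all CLH libraries and in Ctrl CLT 2. The genes closest to *Tfap2c* were *Zdhhc5*, *Ccl6*, *Gm2115*, *Acox2* and *Clk3* (r = 0.9985 to 0.999), and *Zdhhc5* and *Clk3* were expressed at over 20 RPKM in every library. The genes closest to *Tfap2e* were *Cldn3*, *Wdr65*, *1700012P22Rik*, *Krtap5-2* and *Car4* (r = 0.9985 to 0.999). Of these, *1700012P22Rik*, *Krtap5-2* and *Car4* were listed at 0 in all CLH libraries and in Ctrl CLT 2. The 5 closest genes of *Tfap2a* and 4 of the 5 of *Tfap2c* had reads in every library, and those of *Tfap2b* and *Tfap2e* were at or near 0 outside Ctrl CLT 1 and cKO CLT.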

How the data were processed

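RNA-seq of CLH and CLT tissue from *Med1* cKO and Ctrl mice was used, with 2 libraries a group, grouped by the sample labels. Per the labels, the submitters' processing notes and the methods, the authors trimmed the reads with Trim Galore 0.4.3.1, aligned them to mm10 with STAR 2.6.0b-1, counted reads on genes with featureCounts 1.6.3, and used DESeq2 2.11.40.2 for their own tests. They deposited RPKM values for 23358 genes with a gene length. The annotation, the strand setting and the total behind the RPKM are not given in the sources used here. No Tfap2 gene was among the 26 names that stand on several lines. The number of unused per-sample columns was 0.

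RPKM times gene length came out as whole multiples of 1 step in each library (100% of the values checked, within 0.1 read), which gave the reads behind each value and totals of 26591613 to 34420180. Intervals from reads cover counting error only. A length model differs between sources: the table gives *Tfap2a* 3268 bases and GENCODE M21 4903 over all its exons, so levels between genes depend on it. Because the values are not counts, log2(RPKM + 1) was tested in R 4.3.3 by limma 3.58.1, whose eBayes step let the variance follow the mean level, on the 14148 genes that reached 1 RPKM in 2 or more of the 8 libraries, with Benjamini-Hochberg adjustment over all of them and a threshold of 0.05. Each comparison was fitted on its 4 libraries, and the difference of the cKO effect between regions on all 8. The methods call the libraries biological duplicates, and the labels do not say which litter or animals a library came from. The 4 genes were described in every library. Genes of the cofactor, transcription factor and AP-2 regulated lists were named where they passed the threshold or were among the 2 largest or 2 smallest differences of a list, markers were summed by list, and the 5 tested genes with the highest Pearson r were named for each Tfap2 gene. *Erbb2*, *Klf4* and *Kctd1* were also described by their libraries after their values were seen. Of the lists, 1 cofactor and 1 transcription factor are not reported here, and counts and medians leave them out. The genes and lists were chosen with earlier results of these data known. As alternatives, the pseudocount was set to 0.1 or 0.5, values were scaled by median-of-ratios or quantile-normalized, the filter was dropped or put on the mean, and the fit was run over 8 libraries at once, with the replicate number as a block, with a constant variance, with robust eBayes, by voom on the recovered reads and without each library. Other fits of the gene lists were added after seeing the data. The main fits were also run on simulated counts that had the same spread in every group. How they behave at the wider spread of the Ctrl CLT libraries was not tested.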

Additional observations from a re-analysis of the deposited data

Results flagged for a closer look

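The cKO effect on *Tfap2a* differed between the regions: it was larger in CLT than in CLH by 1.67 on the log2(RPKM + 1) scale (adjusted p = 0.00935 by the limma interaction test). Both cKO CLT libraries were above both Ctrl CLT libraries, while the CLH libraries of cKO and Ctrl overlapped. Hair, cornified epidermis, melanocyte and skeletal muscle markers moved with the same cKO CLT libraries, and their part in this difference was not tested.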

How the results depend on the processing

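Of the 4 genes in 5 comparisons, the differences of CLT against CLH in cKO kept their direction and their call under all 60 refits, including each library left out, which for *Tfap2b* and *Tfap2e* shows nothing about direction because they were tested through CLT libraries alone. For cKO against Ctrl in CLT no direction turned in 60 refits, but calls did. For *Tfap2b* and *Tfap2e* the refit without Ctrl CLT 1 shows nothing about direction, because they then reached 1 RPKM in cKO CLT libraries alone. *Tfap2a* no longer passed with a pseudocount of 0.1 (1.72, adjusted p = 0.0503), median-of-ratios scaling (1.68, adjusted p = 0.0532), quantile normalization (1.55, adjusted p = 0.0553), no filter on low values (1.62, adjusted p = 0.0981), no variance trend (1.62, adjusted p = 0.0526) or voom (1.73, adjusted p = 0.0652; the others by limma). With all 8 libraries in 1 fit *Tfap2b* (2.49, adjusted p = 0.0172), *Tfap2c* (1.94, adjusted p = 0.00798) and *Tfap2e* (1.72, adjusted p = 0.0167) passed by limma, where 23.7% of all genes were called higher. That fit takes in the CLH libraries, where these genes varied less, so it understates their spread in CLT. Between the regions of Ctrl mice, *Tfap2a* turned sign with median-of-ratios scaling (0.12) and quantile normalization (0.0641). The causes were not tested.

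With 1 library left out at a time, the differences of cKO to Ctrl in CLT ran from 1.47 to 1.77 for *Tfap2a*, 1.51 to 3.47 for *Tfap2b*, 1.37 to 2.51 for *Tfap2c* and 1.08 to 2.36 for *Tfap2e*. Those in CLH ran from -0.19 to 0.0886 for *Tfap2a*. Those of CLT to CLH in Ctrl ran from -0.19 to 0.11 for *Tfap2a*, -0.0365 to 1.92 for *Tfap2b*, -0.0336 to 1.11 for *Tfap2c* and -0.031 to 1.24 for *Tfap2e*. The differences between the regions in the cKO effect ran from 1.52 to 1.82 for *Tfap2a*, 1.54 to 3.50 for *Tfap2b*, 1.16 to 2.30 for *Tfap2c* and 1.16 to 2.43 for *Tfap2e*. *Tfap2a* reversed in CLH without Ctrl CLH 2 (0.0886) and without cKO CLH 2 (0.0049), and in Ctrl without Ctrl CLH 2 (0.10) and without Ctrl CLT 2 (0.11).

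Counts of genes in CLT, 11 higher and 237 lower, were 3352 and 2831 with all 8 libraries in 1 fit, 34 and 18 without a filter, 0 and 18 with voom, 4445 and 5393 without Ctrl CLT 1, 4121 and 3248 without Ctrl CLT 2, and 0 and 11 without either cKO CLT library. The labels number the libraries 1 and 2 in each group but do not say what a number marks, and same-numbered libraries deviated together with r from -0.192 to 0.307. With the replicate number as a block, 888 genes were higher and 856 lower in CLT, and *Tfap2b* (2.49, adjusted p = 0.0371) and *Tfap2c* (1.94, adjusted p = 0.0384) passed by limma. With the block, 7 of the 13 transcription factors, 2 of the 9 regulated genes and 0 of the 9 cofactors were called higher in CLT. In the interaction test the block left 513 genes higher in place of 1139, and 1 of the regulated genes in place of 3. The fitted differences of *Tfap2b* and *Tfap2e* depend on the pseudocount, since 1 to 9 reads stood behind their CLH values: between the regions of cKO mice they reached 9.05 and 6.47 over the other settings. With 2 libraries a group, spread within a group is estimated poorly, and depth limits *Tfap2b* and *Tfap2e* in CLH and in Ctrl CLT 2.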
